A study of Mus musculus with 12 samples.

Results

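The genes of the collagen-containing extracellular matrix are described here by their m6A peaks in mouse liver. Members were the genes whose annotation in the deposited peak table carries the Gene Ontology term for collagen-containing extracellular matrix, after complement and coagulation genes, apolipoprotein genes, Hp, Alb and Ttr were set aside. The term was carried by 140 genes in the table, and 128 genes with 227 peaks were kept, out of 10277 named genes with 17503 peaks. The term is broad. Besides collagens and laminins it takes in plasma proteins, cathepsins, a nuclear RNA-binding protein gene (Hnrnpm) and a ribosomal protein gene (Rpsa), and the fibrinogen gene Fgb stayed in because its pathway cell is empty.

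Postnatal liver of Mettl3-deficient mice was set against that of wild-type mice, all C57BL/6, in an assay that pulls down fragmented poly(A) RNA with an antibody to m6A and sequences it beside the input RNA. There were 3 Mettl3-deficient IP libraries, 3 Mettl3-deficient input libraries, 3 wild-type IP libraries and 3 wild-type input libraries. The allele, the Cre driver, the cells that lost Mettl3 and the age in days were not given in the sources used here, nor whether the libraries of a group come from separate mice. The deposited table holds 1 row per peak with the authors' own comparison of the genotypes, so no level per mouse, no read depth and no spread between mice can be given, and no new test of a peak was made.

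N6-methyladenosine (m6A) is the most common internal mark of mRNA. METTL3 is the catalytic subunit of the methyltransferase that writes it, largely near stop codons and in 3′ UTRs, and the mark affects how long an mRNA lasts and how it is translated. The collagen-containing matrix is the scaffold of secreted collagens, laminins, proteoglycans and glycoproteins around cells. In liver, stellate cells, portal fibroblasts and endothelial cells make most of the structural proteins, while hepatocytes secrete fibronectin and many plasma proteins that lodge in the matrix.

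A peak was called when its deposited false discovery rate (FDR) was 0.05 or below, and the leading peak of a gene is the one with the lowest FDR. Ties went to the peak with the larger absolute change. Which genotype is on top of the log2 fold change is not named in the header. From the design a negative value likely means less m6A enrichment in Mettl3-deficient than in wild-type liver, and a positive value more, but nothing else settles this. No peak of Mettl3 itself was used to check it. In whole liver, fewer cells of a type and less RNA per cell cannot be told apart, and how far the change is corrected for the level of the input RNA is not given in the sources used here.

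Matrix genes lay mostly on the positive side of the table. Of the 128 members, 97 (75.8%) had a called leading peak, 79 of them positive and 18 negative, and 31 were not called. Over all genes the leading peak was called in 81.1%, negative in 47.6% and positive in 33.6%. The negative share of called leading peaks was therefore 18.6% in matrix genes and 58.6% in the whole table. The median leading change was 0.72 in matrix genes, against -0.52 over all genes. By peak, 124 of the 227 were called positive, 40 called negative and 63 not called. Over all 17503 peaks, 76.2% were called, 35.6% as positive and 40.6% as negative.

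Matrix genes and the whole table had the same median positive change. Called positive peaks had a median of 0.73 (quartiles 0.58 and 0.96) in matrix genes, against 0.73 (quartiles 0.56 and 0.96) in the whole table. Called negative peaks had medians of -1.66 in matrix genes and -1.34 in the whole table. With an added requirement of 1 or more in absolute log2 change, 28 matrix peaks were positive and 32 negative, and over all peaks these calls made up 7.80% and 29.0%. Some of these negative peaks lie outside their gene, as described below. With peaks that overlap the RefSeq span of their gene, 28 were positive and 20 negative. Over all genes these counts were 1314 and 4825 of 16608 peaks. At an FDR of 0.001 or below, 61 member genes were positive and 18 negative by leading peak, beside 24.3% and 42.2% of all genes.

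Some negative peaks of the members lie in other genes. All 128 members matched a RefSeq symbol on GRCm38.p6, the same build as the mm10 of the files, and 28 of their 227 peaks (12.3%) lay outside the RefSeq span of the gene, against 3.14% over all genes that matched. Of these 28 peaks, 24 belong to Fgfr2, a fibroblast growth factor receptor gene whose RefSeq span runs from 130162451 to 130266808 on chromosome 7. None of its 24 peaks overlaps that span. All 24 overlap other RefSeq genes, and 11 of them were called negative and 5 positive. The leading peak, at 132557896 to 132559719 (annotated 3′ UTR), stood at -1.63 in the authors' deposited table and lies in Oat, the ornithine aminotransferase gene. The leading peak of Egfl7, a gene of endothelial matrix, stood at -1.79 in the authors' deposited table and lies at 26593057 to 26593597 on chromosome 2, past the RefSeq end of Egfl7 at 26592682 and within Agpat2. The peak of Egfl7 within the gene, in the 5′ UTR, was positive at 0.54 in the authors' deposited table and just inside the threshold (log10 FDR -1.32). The other 3 such peaks belong to Tinagl1, Colec12 and Hnrnpm. A peak is counted as in the span when it overlaps it by at least 1 base. With such peaks alone, 127 members remained, 80 positive, 16 negative and 31 not called, beside 34.1% positive and 47.8% negative over all genes treated in the same way.

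**Figure D1:**
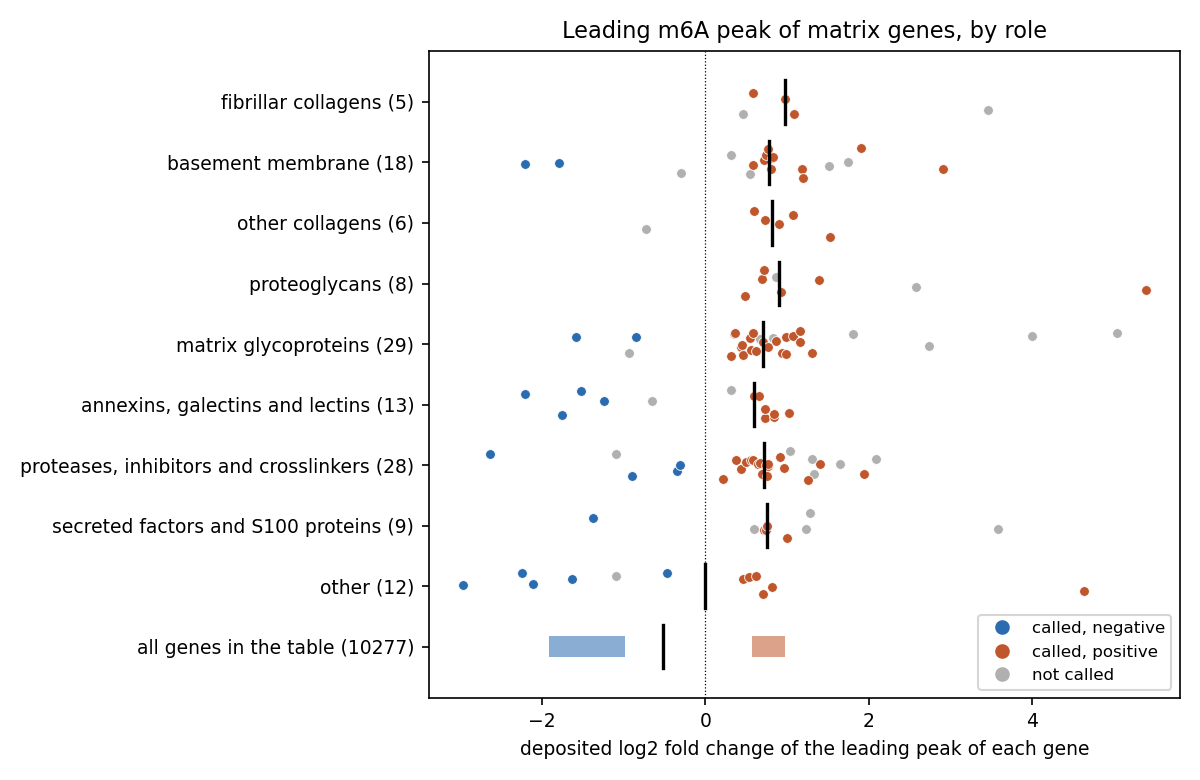
Deposited log2 fold change of the leading peak (horizontal axis) of each of the 128 matrix genes, 1 point a gene, by role with the number of genes in brackets, with black bars at the medians. In the lowest line the bars span the quartiles of called negative and called positive leading peaks of all 10277 genes and the black bar is their median of -0.52, left of the median of every matrix role.

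By leading peak, the structural genes of the matrix were less often negative than the other members. Collagens, basement membrane genes, proteoglycans and matrix glycoproteins, here called core matrix genes, numbered 66. By leading peak 44 were positive, 4 negative (Fras1, Egfl7, Colec12 and Ccn1) and 18 not called, with a median of 0.79. With peaks in the RefSeq span the counts were 45, 3 and 18. The 62 matrix-associated genes were positive in 35, negative in 14 and not called in 13, with a median of 0.66. With peaks in the RefSeq span these counts were 35, 13 and 13. By called peaks in span, 7 of 63 were negative in core matrix genes and 20 of 83 in matrix-associated genes. The difference was not seen in every role, since proteases, inhibitors and crosslinkers had 4 of 36.

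The fibrillar collagens form the tensile fibres of the matrix. None of the 5 listed genes was negative and 3 were called. In the authors' deposited table Col1a1, which encodes the main chain of type I collagen, had a 3′ UTR peak at 0.58 (log10 FDR -18.6), a ratio of 1.49. Col5a2, a chain of the type V collagen that helps to start fibrils, stood at 1.08 in the authors' deposited table (log10 FDR -11.6), and Col27a1 at 0.97 there. Col1a2 (0.46) and Col3a1 (3.46) did not pass the threshold in the authors' deposited table. The value of Col3a1 is high but rests on a peak with a log10 FDR of -0.41.

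The other collagens were alike. These include the beaded-filament collagen VI and collagens that decorate fibrils, and 5 of 6 genes were positive and called by leading peak. The authors' deposited table gives 1.07 for Col6a2, 0.90 for Col6a3, 0.73 for Col14a1, 0.60 for Col16a1 and 1.53 for Col23a1. Col12a1, at -0.73 in the authors' deposited table, was not called. Col6a3 was the one collagen with both signs: its 3′ UTR peak and an exon peak at 0.88 were positive in the authors' deposited table, and another exon peak was negative at -1.09 with a log10 FDR of -1.31, close to the threshold.

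Basement membranes are thin sheets built on collagen IV and laminin networks. Of 18 genes, 11 were positive, 2 negative and 5 not called. For the collagen IV chains the authors' deposited table gives 0.83 for Col4a1 (log10 FDR -26.6), 0.76 for Col4a2 and 2.91 for Col4a4, while Col4a5 (1.74) was not called. The laminin chains with a called peak stood at 1.2 for Lamb1, 1.18 for Lama2, 0.82 for Lamc1, 0.74 for Lama1 and 0.58 for Lamb2 in the authors' deposited table. Lama4, at 0.55 in the authors' deposited table, was not called. No laminin chain and no collagen IV chain had a negative peak. The linker and accessory genes were less uniform. In the authors' deposited table Hmcn2 stood at 1.91, Tinagl1 at 0.80 and the heparan sulfate proteoglycan gene Agrn at 0.72, all positive and called. Nid2, a nidogen that links laminin to collagen IV, stood at -0.30 (not called) in the authors' deposited table, and its peaks also lie over the neighbouring gene Rtraf. Npnt (1.51) and Ntn1 (0.31) were not called in the authors' deposited table. Apart from Egfl7, the negative gene was Fras1, which encodes a large protein of epithelial basement membranes. Its leading peak, in an exon, stood at -2.21 (log10 FDR -13.2), a ratio of 0.216, and the other 3 were also below 0, 1 of them called, in the authors' deposited table. The exon peaks overlap each other and a predicted gene, Gm32995.

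Small leucine-rich proteoglycans bind collagen fibrils and set their spacing, and glypicans sit on the cell surface. Of 8 proteoglycan genes 6 were positive and 2 (Fmod and Cspg4) not called, at 0.87 and 2.58 in the authors' deposited table. The best-supported were Bgn at 0.69 (log10 FDR -64.8) and Dcn at 0.72 in the authors' deposited table (log10 FDR -32.8), both in the 3′ UTR. Lum had the same value, 0.93, in a 3′ UTR peak and in a peak annotated 5′ UTR that is 6472 bp wide. Prelp stood at 0.48 in the authors' deposited table. The most positive called change of the matrix genes, 5.39 in the 3′ UTR of Gpc2 in the authors' deposited table, has weak support (log10 FDR -1.44) and lies over Stag3 as well. Gpc6, the other glypican gene, stood at 1.39 in the authors' deposited table (log10 FDR -1.46).

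Matrix glycoproteins link fibres, cells and growth factors. By leading peak 19 of 29 genes were positive, 2 negative and 8 not called. For the best-supported positive genes the authors' deposited table gives 0.46 for Ecm1 (log10 FDR -47.5), 0.44 for Tgfbi, 0.77 for Ltbp4 and 0.55 for the fibrinogen gene Fgb. Examples that help to build elastic fibres were also called positive, with values in the authors' deposited table of 1.30 for Efemp2, 1.16 for Efemp1, 0.99 for Emilin1 and 0.62 for Fbln5. Fn1, which encodes fibronectin, stood at 0.45 (log10 FDR -6.78) and the periostin gene Postn at 0.94 in the authors' deposited table. Tnxb, the tenascin-X gene, had 3 called peaks between 1.07 and 1.53 in the authors' deposited table, and the 3′ UTR one also lies over a Cyp21a2 pseudogene. The negative genes were Colec12, a scavenger receptor with a collagen-like stalk, and Ccn1, a matricellular signalling protein, at -1.59 and -0.85 in the authors' deposited table. Colec12 was negative in all 3 of its peaks, 2 of them called. The high values of 5.04 for Mfap1b (log10 FDR -1.23), 4.0 for the fibrillin gene Fbn2, 2.74 for Matn2 and 1.81 for Spon1 in the authors' deposited table did not pass the threshold. Mfge8, at 0.83 in the authors' deposited table, was just outside it, with a log10 FDR of -1.28.

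Most strongly negative peaks of the members lay in the matrix-associated genes, though at a lower share than in the whole table. Called peaks at -1 or below numbered 26 of 127 in these genes and 6 of 100 in core matrix genes, against 29.0% over all peaks. With peaks in the RefSeq span they numbered 15 of 102 and 5 of 97, against 4825 of 16608 over all genes. Many of the 26 were Fgfr2 peaks that lie in other genes. Many of the matrix-associated genes are not structural, and several act inside cells or in plasma. Among annexins, galectins, lectins and plexins, 7 of 13 genes were positive, 4 negative and 2 not called. The 5 called annexins were positive: the authors' deposited table gives 1.02 for Anxa7, 0.84 for Anxa5, 0.73 for Anxa6, 0.73 for Anxa3 and 0.65 for Anxa4. Annexins bind membranes in the presence of calcium. Both plexins, which are semaphorin receptors, were negative. In the authors' deposited table Plxna2 stood at -2.21 and was negative in 3 called 3′ UTR peaks, and Plxnb2 stood at -1.24 and at -2.04 in an exon. The cargo receptor gene Lman1 (-1.76) and the collectin gene Sftpd (-1.53) were also negative in the authors' deposited table, and the galectin gene Lgals9 was positive at 0.84.

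Proteases, inhibitors and crosslinkers remodel the matrix, and 18 of 28 were positive, 4 negative and 6 not called. Among the members that process collagen, the authors' deposited table gives positive called values of 1.40 for Bmp1 and 1.25 for Adamts2, which trim procollagen, 0.67 for the collagen chaperone gene Serpinh1, 0.75 for the lysyl hydroxylase gene Plod1 and 0.96 for the crosslinking enzyme gene Loxl2. Adamts5, which cleaves proteoglycans, stood at 1.94 in the authors' deposited table. The most negative was Pcsk6, a proprotein convertase gene, at -2.64 in the 3′ UTR, a ratio of 0.16, with an FDR at the floor of the scale in the authors' deposited table. Cathepsins, the proteases of the lysosome, differed by leading peak. In the authors' deposited table Ctsb stood at -0.90 and Ctsl at -0.31, while Ctsc stood at 0.50 and Ctsz at 0.58. Ctsb and Ctsl also held called positive 3′ UTR peaks, at 1.21 in Ctsb and at 0.79 and 0.73 in Ctsl in the authors' deposited table, and the mean over peaks was positive in both genes, at 0.15 and 0.40. The inter-alpha-trypsin inhibitor chains, which hepatocytes secrete and which bind hyaluronan, were split by leading peak as well, with Itih3 at 0.56, Itih4 at 0.44 and Itih1 at -0.35 in the authors' deposited table. Itih1 also held called positive peaks at 0.96 and 1.2 in the authors' deposited table, and the mean over its peaks was positive at 0.60. Ambp, which encodes the light chain of these inhibitors, was positive at 0.76 in the authors' deposited table, as were the plasma protease inhibitor genes Pzp (0.64) and Serpina1a (0.74).

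Of 9 genes of secreted factors and S100 proteins, 4 were positive, 1 negative and 4 not called. Tgfb1, which encodes the main growth factor driving collagen production, was positive in both UTRs, at 0.74 and 1.04 in the authors' deposited table. Tgfb2 (3.58) and Tgfb3 (1.23) were not called in the authors' deposited table. S100a11, Wnt2 and the cytokine gene Il16 were positive, at 0.72, 0.75 and 1.0 in the authors' deposited table. The negative gene was Hcfc1, a nuclear transcription cofactor, with -1.38 in an exon in the authors' deposited table. The remaining 12 genes fell into no role and were split, with 6 positive, 5 negative and 1 not called. The negative ones include Fgfr2, and with peaks in the RefSeq span the counts were 6, 4 and 1. Among them the authors' deposited table gives -2.97 for Lgalsl, the most negative leading change of the members, -2.25 for Cpn2, a plasma carboxypeptidase subunit, and -2.11 for Fam20b, a kinase of proteoglycan linker synthesis. The chaperone gene Calr (0.82), Rarres2 (0.53), Plscr1 (0.71) and Rpsa (0.62) were positive in the authors' deposited table. Sema3c, a semaphorin gene, reached 4.64 in the authors' deposited table, with a log10 FDR of -1.77.

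By annotated feature, the negative share was lower in matrix genes than in the whole table in each class. In the 3′ UTR 28 of 110 called matrix peaks were negative (25.5%), against 60.4% of 7943 over all genes. In the 5′ UTR 3 of 33 were negative (9.09%), against 30.1% of 3249 over all genes, and in other exons 9 of 21 (42.9%), against 61.8% of 2153. Among core matrix genes alone the counts were 5 of 48 in the 3′ UTR, 0 of 6 in the 5′ UTR and 3 of 10 in exons. No test of these shares was made, since peaks of 1 gene share their RNA. With peaks of at most 1000 bp, 23.3% of called matrix peaks were negative in the 3′ UTR and 22.2% in the 5′ UTR. The 5′ UTR share rests on few peaks, and its negative ones include a peak of Hnrnpm that lies outside the gene and over Marchf2. These shares therefore cannot show whether the UTRs differ among narrower peaks, and no share over all genes at this width is given.

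**Figure D2:**
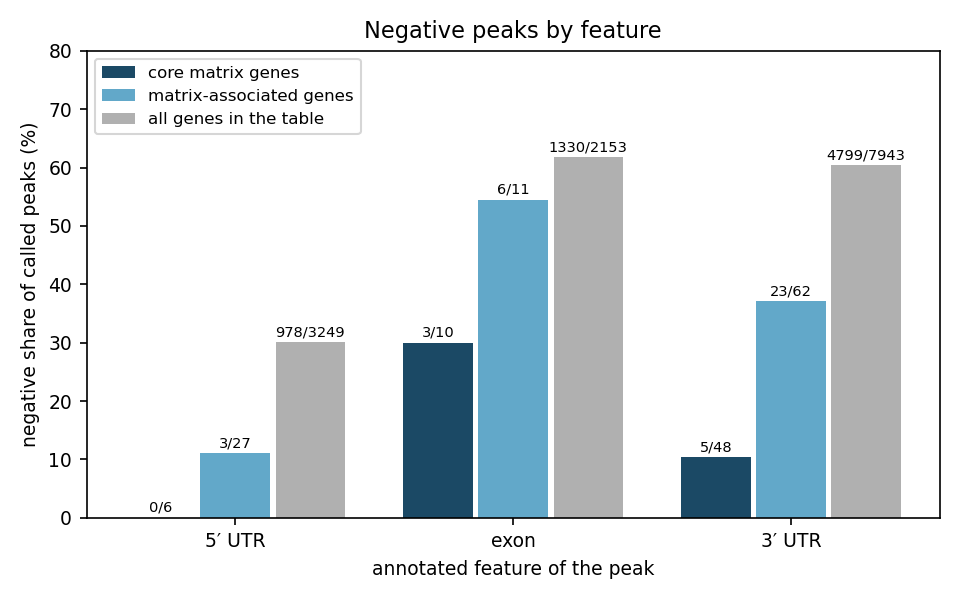
Negative share of called peaks (vertical axis, percent) in core matrix genes, matrix-associated genes and all genes in the table, for the 5′ UTR, exon and 3′ UTR peaks. The numbers above the bars are negative over called peaks, and in each feature the core matrix genes have the lowest share and all genes the highest.

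The UTRs of 12 of 16 members shared a sign. Called peaks overlapping the RefSeq span were present in both UTRs of 16 members: 11 were positive in both, 1 (Fam20b) negative in both, 3 positive in the 5′ and negative in the 3′ UTR, and 1 the reverse. In the whole table, treated alike, 504 of 1440 such genes were positive in the 5′ and negative in the 3′ UTR, 80 the reverse, 572 positive in both and 284 negative in both. The 3 members were Lman1, with -1.76 in the 3′ and 0.86 in the 5′ UTR, Itih1, with -0.35 and 1.2, and Fgb, with -0.29 and 0.55, in the authors' deposited table. The 5′ UTR peak of Lman1 is 17325 bp wide and lies mostly outside the RefSeq span, which it overlaps at its edge. Cpn2 was the reverse, with 0.30 in the 3′ and -2.22 in the 5′ UTR in the authors' deposited table, but its 5′ UTR peak is 7710 bp wide and runs along most of the gene. Hnrnpm would join Cpn2 as deposited, with 0.54 in the 3′ and -2.17 in the 5′ UTR in the authors' deposited table, but that 5′ UTR peak lies beyond the start of the gene and over Marchf2. Dcn, Lum and Col6a2, structural genes of this set, were positive in both UTRs. The peak annotated 5′ UTR is 6472 bp wide in Lum and 16254 bp wide in Col6a2. In these genes the values may therefore not be separate readings of the UTRs. In all, 11 of 96 members with a called peak in span held both signs (11.5%), against 14.9% over all genes. They were Col6a3, Cpn2, Ctsb, Ctsl, Fam20b, Fgb, Hcfc1, Hnrnpm, Itih1, Lgalsl and Lman1.

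**Figure D3:**
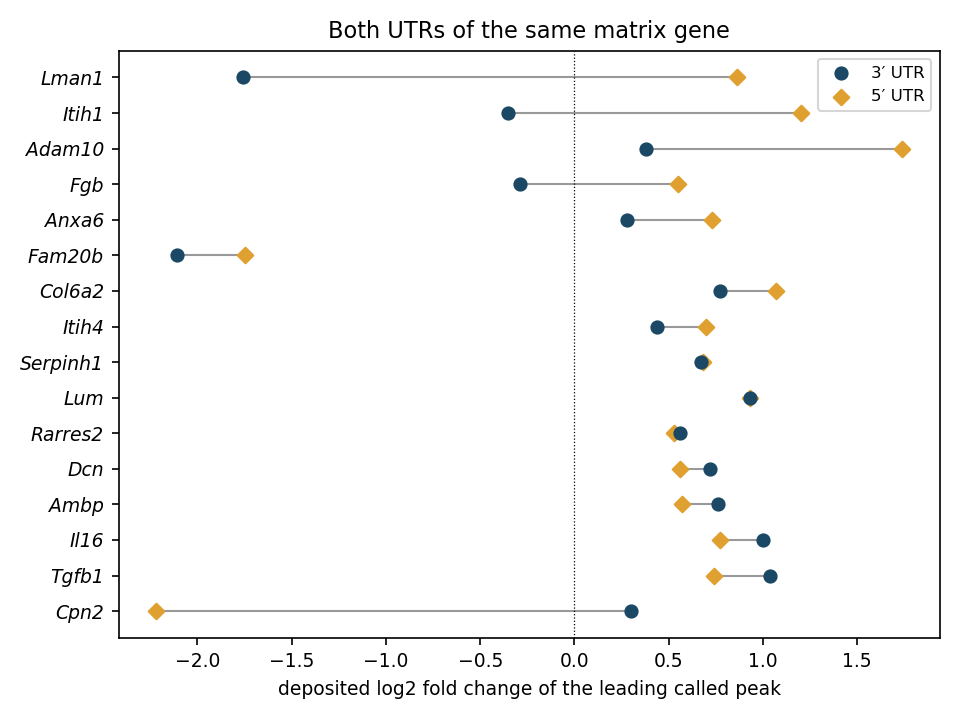
Deposited log2 fold change (horizontal axis) of the leading called 3′ UTR peak (circles) and 5′ UTR peak (diamonds) of the 16 matrix genes in which both overlap the RefSeq span. In Lman1, Itih1 and Fgb the 3′ UTR lies below 0 and the 5′ UTR above it, and in Cpn2 the reverse.

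In some genes with both signs the positive 3′ UTR peak was the one nearer to the end of the gene. In Hcfc1 the 3′ UTR peak that ends 1228 bp before the end of the gene stood at -0.97 and the one 60 bp before it at 0.95 in the authors' deposited table. In Ctsl the peak 1872 bp before the end stood at -0.31 and the one 837 bp before it at 0.79 in the authors' deposited table. In Lgalsl the peak 2636 bp before the end stood at -2.97 and the one 251 bp before it at 1.16 in the authors' deposited table. These genes were chosen after their values were seen. Called 3′ UTR peaks of at most 1000 bp, in genes with a strand in the RefSeq table, were sorted by their distance from the RefSeq end of the gene. Within 300 bp of the end, 3 of 33 matrix peaks were negative (9.09%), and further upstream 5 of 13 (38.5%). Over all genes the shares were 38.2% of 2134 and 74.7% of 2116. Of the 20 such peaks of core matrix genes 18 lay within 300 bp of the end, so few upstream peaks of these genes entered this count. The limits on width and call left out others. Hmcn2 and Fbln5, for example, had called positive 3′ UTR peaks 3642 and 3799 bp before the end, both wider than 1000 bp. The part of this position in the result was not tested beyond these counts.

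Sequence was at hand only for the starts of genes. A called 5′ UTR peak overlapped the first 50 bases of a RefSeq start in 16 members, 15 of them with a positive peak, and over all genes in 1671, 1267 of them with a positive peak. The core of the m6A consensus, GGAC, was searched on the transcript strand in these 50 bases. It was found in 3 of the 16 (18.8%), against 20.6% of 1671 genes with such a peak in the whole table and 18.9% of 27025 RefSeq starts. The 3 stretches, from RefSeq on GRCm38.p6, are shown with the motif in capitals to place it beside the peak.
Ctsz, chr2:174438990-174439019, minus strand: caacttgggcgcctcctaaaGGACcgggcg
S100a11, chr3:93520516-93520545, plus strand: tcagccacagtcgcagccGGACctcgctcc
Fgb, chr3:83049831-83049860, minus strand: catgccggggagaGGACccactatatatag
In Ctsz and S100a11 the motif lies within the peak, and both peaks were positive (0.58 and 0.72 in the authors' deposited table). In Fgb it lies outside the edge of the peak. A match is a description of letters and not of a methylated site.

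The strength of the deposited evidence moved with the sign. Over all genes with peaks in the RefSeq span, 76.5% of 3984 called peaks with a log10 FDR of -20 or below were negative, and 42.2% of 8812 weaker ones. Core matrix genes had mostly weak evidence: 53 of their 63 called peaks were of the weaker kind, and 3 of these 53 were negative (5.66%), while 4 of the 10 stronger ones were (40.0%). In matrix-associated genes 6 of 48 weaker peaks (12.5%) and 14 of 35 stronger ones (40.0%) were negative. Within each class of evidence the matrix shares were thus below those of the whole table. The part of sequencing depth in this could not be measured.

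**Figure D4:**
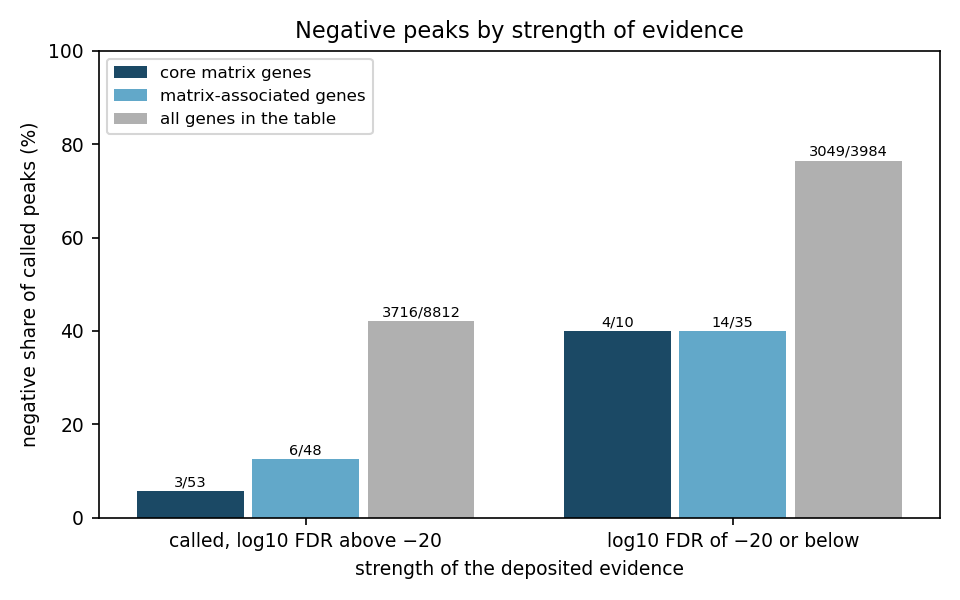
Negative share of called peaks that overlap the RefSeq span of their gene (vertical axis, percent) for weaker and stronger evidence, in core matrix genes, matrix-associated genes and all genes in the table. The numbers above the bars are negative over called peaks, and both matrix sets lie at 40.0% among stronger peaks, against 76.5% over all genes.

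Markers of endothelial cells were positive, and those of stellate cells and fibroblasts mostly so, though some of these markers are members themselves. Over all genes with a peak in span, the leading peak was positive in 34.1% and negative in 47.8%. By leading peak in span, all 11 endothelial markers with a peak were positive and called (median 0.65), and 1 of them, Egfl7, is a member. Of 13 stellate cell and fibroblast markers 8 were positive, 1 negative and 4 not called (median 0.58). As 6 of them are members, those 6 repeat the matrix result and add nothing to it. Beyond the members, the authors' deposited table gives called positive values of 0.33 for the stellate cell receptor gene Pdgfrb, 0.75 for Pdgfra, 0.76 for Ngfr and 1.14 for Rgs5. It gives -1.53 for Tagln, a contractile protein gene of smooth muscle and activated stellate cells. Tcf21 (0.34) and Thy1 (0.56) were not called in the authors' deposited table. Hepatocyte markers were negative in 6 of 7 (median -1.29) and cholangiocyte markers in 4 of 5 (median -1.57), and macrophage markers went both ways, with 1 negative (Cd14), 1 positive (Lyz2) and 3 not called, of which Mmp9 is a member. Levels of these markers per library were not analysed here, so the part of cell type in the matrix result was not tested.

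Genes that make, cut or sense matrix without carrying the term went both ways, as genes of the whole table did. Over all genes with a peak in span, the leading peak was negative in 47.8% and positive in 34.1%. Of 17 genes of collagen biosynthesis and matrix turnover with a peak in span, out of 35 listed, 9 were negative, 6 positive and 2 not called (median -0.52). The authors' deposited table gives -0.84 for P4hb, -1.27 for P3h1 and 0.75 for P3h3 (genes of collagen prolyl hydroxylation), -1.03 for the collagen galactosyltransferase gene Colgalt1 and -2.33 for Mia3, a receptor for procollagen export. Crtap and Ppib, whose products form a complex with that of P3h1, were positive at 0.63 and 0.64 in the authors' deposited table. The membrane-type collagenase gene Mmp14 stood at -0.52, Mmp15 at -1.19, Mmp19 at -2.73 and the gelatinase gene Mmp2 at 0.45, and the inhibitors Timp1 and Timp2 were listed with 0.91 and with 0.67 in the authors' deposited table. Of 19 matrix receptor genes with a peak in span, 8 were negative, 7 positive and 4 not called (median 0.59). Among receptors, the dystroglycan gene Dag1 stood at -2.00, the collagen receptor genes Ddr1 and Ddr2 at -2.10 and -1.40, and the fibronectin receptor subunit gene Itga5 at -1.30 in the authors' deposited table. Its partner Itgb1, the common beta subunit, was positive at 0.98 in the authors' deposited table. These lists are small and no difference between them and the members was tested.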

How the data were processed

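The labels give 12 libraries of liver poly(A) RNA in 4 groups of 3, Mettl3-deficient and wild-type, IP and input. The submitters' processing notes name HISAT2 2.1.0 and mm10. How peaks were called, filtered and compared, and whether strand was used, was not given in the sources used here. The authors deposited 17692 peaks with a log2 fold change, a log10 FDR and a p-value rounded to 2 decimals. Both log columns are treated here as a score in the deposited table, since 189 rows with no gene name hold displaced cells and the log10 FDR has a floor. Those rows were left out. Per the file headers, the other deposited measures, width and distance from the transcript start, are in bp on the genome, introns included.

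Members, leading peaks, counts and medians were computed with Python 3.11.15 and pandas 2.3.3, and the shared steps were tested on simulated data. The members, roles and gene lists were chosen with earlier results of these data known. The planned fits of single libraries, the pairing and the peak motif search were not run. RefSeq spans, gene ends, start sequences and classes of evidence were examined after the data were seen. Named were the most extreme called members, all fibrillar collagen, basement membrane and proteoglycan genes, and up to 4 called genes by FDR and direction in other roles, with some further genes chosen after their values were seen.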

Additional observations from a re-analysis of the deposited data

How the results depend on the processing

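The 9 roles each had more positive than negative genes as deposited, 8 did at an FDR of 0.001 or with peaks of at most 1000 bp, and 6 with a change of at least 1. Requiring a change of at least 1 left 28 positive peaks and 19 positive genes, with negative shares of 50% in the 3′ UTR and 42.9% in the 5′ UTR. With peaks in the RefSeq span the same limit left 28 positive and 20 negative peaks. Of these, 21 positive and 11 negative peaks lay in the 3′ UTR. Peaks of at most 1000 bp gave 25 negative and 69 positive peaks and 51 positive genes, with negative shares of 23.3% in the 3′ UTR and 22.2% in the 5′ UTR. After subtraction of the table-wide median of 0.34, the members' median was 0.38. Core matrix roles alone gave 4 negative and 44 positive genes. Peaks in the RefSeq span, an alternative chosen after seeing the data, lowered the negative share of the 3′ UTR to 17.9%, the genes positive in the 5′ and negative in the 3′ UTR to 3 in place of 5, and the median 3′ minus 5′ UTR change to -0.14, against -0.26 as deposited. With the mean of each UTR that median was -0.06.

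Single genes changed sign as follows. By the largest change, Col6a3 was -1.09, Ctsb 1.21, Ctsl 0.79, Fgfr2 4.04 and Itih1 1.2. By the mean over peaks, Ctsb was 0.15, Ctsl 0.40 and Itih1 0.60. With 3′ UTR peaks alone, Cpn2 was 0.30, Fgb -0.29, Hnrnpm 0.54 and Plod1 -0.52. With peaks of at most 1000 bp, Col6a3 was -1.09, Ctsl 0.79, Hnrnpm 0.54 and Plod1 -0.52. Relative to the median of all peaks, Cst3 was -0.12 and Ltbp3 -0.03. In the RefSeq span, Egfl7 was 0.54. The causes were not tested. No paired analysis was possible because the table has no values per library, and leaving out replicates was not run for that reason. Read depth, and so the smallest change that could be seen, is unknown.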

Other observations

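Members that also carry the KEGG pathway of ECM-receptor interaction had no negative leading peak in the RefSeq span. Over all genes with a peak in span, the leading peak was negative in 47.8% and positive in 34.1%. The count covers members alone and not the whole pathway. Of the 19 matrix receptor genes outside the members, 8 were negative and 7 positive. Of the 21 members with the pathway 16 were positive and 5 not called (median 0.82). The 106 members without that pathway were positive in 64, negative in 16 and not called in 26 (median 0.71). Members annotated to the basement membrane in Gene Ontology were positive in 18, negative in 1 and not called in 9 of 28. Of 3 members in the KEGG lysosome pathway 2 were negative and 1 positive.

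Some members are measured more than once by nearly the same stretch. In 10 members at least 1 peak overlapped an earlier peak of the same gene, 12 peaks in all, and 75 of the 128 members had 1 peak. Of the 199 peaks that overlap the span of their member, 25 also overlapped another RefSeq gene. Fgfr2 had 17 peaks more than 500000 bp from the annotated transcript start, more than any other gene in the table, the next being Frmd4a and Zbtb20 with 3 each.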
